A study of Homo sapiens with 24 samples.

Results

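A set of 10 genes that mark or drive the epithelial-mesenchymal transition were followed through all 24 RNA-seq libraries of a study of 2 transcription factors, MYBL2 and FOXM1, in A549, an established human lung adenocarcinoma cell line. The genes were CDH1, CDH2, VIM, FN1, SNAI1, SNAI2, ZEB1, ZEB2, EPCAM and KRT18. They were chosen by name, as the rows of the count tables that carry these symbols, and all 10 were found among 58721 gene identifiers. The study depleted MYBL2 (siMYBL2, 4 libraries) or FOXM1 (siFOXM1, 4 libraries) with small interfering RNAs at 25 nM, and scrambled siRNA served as the common control of both (siControl, 4 libraries). In a further experiment the siRNAs against both factors were given together (siBoth, 3 libraries) beside a scrambled control of its own (siControl_Both, 3 libraries). Cells were also treated for 24 h with 20 µM FDI-6, a small molecule that blocks DNA binding by FOXM1 (FDI6, 3 libraries), beside a control of that experiment (Control_FDI6, 3 libraries) whose vehicle the labels do not name. The study's list of supplementary tables sets FDI-6 against DMSO, and a figure legend calls the control cells untreated. All libraries came from the same cell line, with the genotype of the controls labelled WT, and the study's methods call the replicates biological. The labels do not say what separates one replicate from another, so p-values measure the spread between these samples.

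In an epithelial-mesenchymal transition, epithelial cells loosen their junctions and keratin network and take on a spindle shape, a vimentin cytoskeleton and a fibronectin-rich matrix. The cadherin switch, from CDH1 (E-cadherin, the adherens junction protein of epithelia) to CDH2 (N-cadherin), is its classical readout. SNAI1 and SNAI2, zinc finger proteins of the SNAIL family, and ZEB1 and ZEB2, zinc finger homeobox proteins, repress CDH1 by binding E-boxes in its promoter. EPCAM is an adhesion glycoprotein of simple epithelia, and KRT18 pairs with KRT8 in the keratin filaments of such epithelia. A549 cells are of epithelial origin but express both kinds of marker, and adding transforming growth factor beta to them is a common laboratory model of the transition.

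Start-site windows are shown for ZEB1, which rose with FDI-6, and for FN1, which was lower with FDI-6. The ZEB1 window shown is 1 of 7 for this gene. It holds 1 copy of the E-box core to which SNAIL and ZEB proteins bind, a word that only 2 of those 7 windows hold. Both windows shown are the 250 bases upstream of a RefSeq start site in GRCh38.p14, written 5′ to 3′ on the gene's strand. Capitals mark the E-box, searched as CAGGTG or CACCTG, which is the same word read on both strands.
ZEB1 (chr10:31318167-31318416, + strand): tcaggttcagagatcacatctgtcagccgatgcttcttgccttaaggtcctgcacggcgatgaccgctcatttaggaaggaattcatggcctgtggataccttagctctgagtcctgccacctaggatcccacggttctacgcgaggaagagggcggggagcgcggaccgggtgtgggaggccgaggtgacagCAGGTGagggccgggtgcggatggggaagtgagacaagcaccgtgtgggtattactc
FN1 (chr2:215436069-215436318, - strand): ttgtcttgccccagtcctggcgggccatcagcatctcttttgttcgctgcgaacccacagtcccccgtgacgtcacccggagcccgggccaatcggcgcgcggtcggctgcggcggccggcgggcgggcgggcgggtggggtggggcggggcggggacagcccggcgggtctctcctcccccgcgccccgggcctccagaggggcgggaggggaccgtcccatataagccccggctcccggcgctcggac
The E-box of the ZEB1 window begins 57 bases before the start site, and the FN1 window held no such word. Windows were found for 5 of the 10 genes, 12 in all, of which 2 held the word, both of them among the 7 windows of ZEB1. Of the 35116 windows of the same length in the RefSeq table, 17.5% held it. A match to these letters is a description and not a binding site.

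The libraries held between 16487394 and 30140550 read pairs counted on genes. The FDI6 and Control_FDI6 libraries were the shallowest, at 16487394 to 21039750 pairs, and the double-knockdown experiment stood apart in the share of pairs not aligned, 9.09% to 10.93% in siBoth and 7.68% to 7.92% in siControl_Both, against 1.73% to 3.03% in the other 18 libraries. In that experiment the treated and control libraries thus did not overlap in this share. The targeted genes fell as labelled: MYBL2 was lower by a log2 fold change of -4.58 in siMYBL2 and -4.35 in siBoth, and FOXM1 of -3.38 in siFOXM1 and -3.37 in siBoth. FOXM1 also fell in siMYBL2, by 0.73 on the log2 scale (adjusted p = 0.00754). With FDI-6, FOXM1 mRNA changed by -0.37 and MYBL2 mRNA by -0.51, each past the adjusted p but under the fold of 1.5. The epithelial markers KRT8, KRT18, KRT19, EPCAM and CDH1 were read in every group. Of 8 fibroblast markers, 3 never passed 1 CPM (counts scaled to library size), and the 8 summed to 8.55 to 71.4 CPM. The immune marker CD3E was at 0 in every library, and 3 endothelial markers summed to at most 4.58 CPM. Of 5 alveolar type II markers, 4 never passed 1 CPM, and SFTPA1 was at 0 in 5 of the 7 groups.

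In the single knockdowns the libraries numbered 4 stood apart from those numbered 1 to 3 in siControl, siMYBL2 and siFOXM1 alike. The chi-square per gene between libraries was 32.15 to 60.71 for pairs with siControl number 4, and 11.45 to 21 among numbers 1 to 3. It was 31.93 to 62.81 against 14.84 to 21.6 in siMYBL2, and 28.29 to 62.31 against 11.23 to 18.17 in siFOXM1. Several markers of the transition lay outside numbers 1 to 3 in all 3 groups. The share of all genes that did so is not given. CDH1 was 87.8 CPM in siControl number 4 against 24.1 to 31.6 in the other siControl libraries, 78.5 against 24.4 to 31.6 in siMYBL2, and 90.3 against 30.4 to 43.3 in siFOXM1. EPCAM in number 4 was 3.06, 3.68 and 2.80 times the mean of numbers 1 to 3 in siControl, siMYBL2 and siFOXM1. In the same 3 libraries VIM was 0.65, 0.62 and 0.64 times that mean, and SNAI2 was 0.18, 0.30 and 0.16 times it. ZEB2, ZEB1 and SNAI1 also lay below numbers 1 to 3 in all 3 groups, whereas KRT18 lay among them in each. CDH2 lay below them only in siFOXM1, and FN1 lay above them in siControl and siMYBL2. Every library numbered 4 thus held more CDH1 and EPCAM and less of VIM and of the 4 repressors than its group's other libraries, whichever siRNA it had received. What sets the number apart was not tested, and the single-knockdown results are given below both with all libraries and without both libraries of that number.

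**Figure D1:**
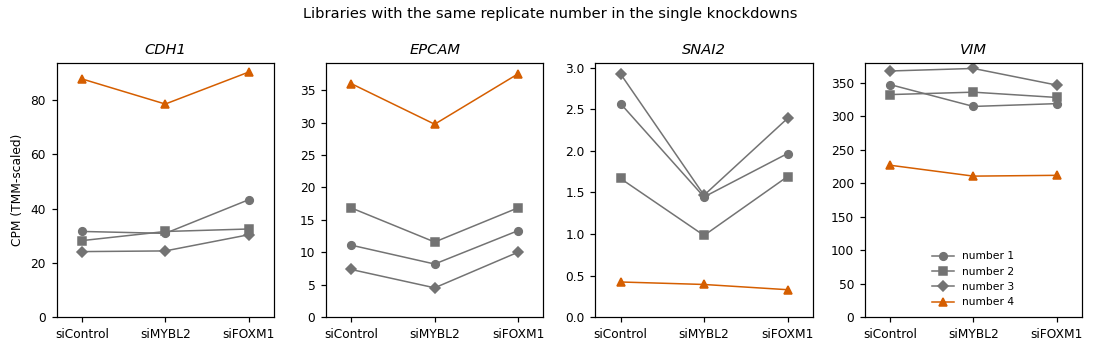
CPM (y axis, linear from 0) of CDH1, EPCAM, SNAI2 and VIM in the 12 single-knockdown libraries, by group (x axis), with lines joining libraries of the same replicate number and number 4 in orange. Number 4 lies above the others for CDH1 (78.5 to 90.3 CPM) and EPCAM (29.8 to 37.5 CPM) and below them for SNAI2 (0.33 to 0.42 CPM) and VIM (210 to 227 CPM) in all 3 groups.

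Levels were compared between genes per kilobase of the canonical transcript. KRT18 was the highest of the 10 genes in all 3 control groups, at 1051 CPM per kb in siControl, 949 in siControl_Both and 1729 in Control_FDI6. VIM and FN1 followed, and they overlapped between libraries in siControl (148 ± 29.1 and 150.3 ± 44.2 CPM per kb, SD, n = 4) and in siControl_Both but not in Control_FDI6, where VIM was 184 ± 13.3 and FN1 57.5 ± 0.079 (SD, n = 3). CDH2 exceeded CDH1 per kb in each control group, at 25.9 against 8.92 in siControl, 39.4 against 6.88 in siControl_Both and 13.4 against 6.43 in Control_FDI6. The cells thus carried both cadherins at baseline, with more CDH2 than CDH1. ZEB1, at 3.74 to 7.10 CPM per kb, was the highest of the 4 repressors in every control group, and SNAI2 and ZEB2 were the lowest pair, with 0.16 to 0.94 and 0.39 to 2.03 CPM per kb. The control groups also differed among themselves: EPCAM was 17.8 ± 12.7 CPM in siControl (SD, n = 4), 3.65 ± 0.611 in siControl_Both and 9.77 ± 0.472 in Control_FDI6 (SD, n = 3). SNAI1 was 3.41 ± 0.39, 7.42 ± 0.769 and 2.90 ± 0.391 CPM in the same groups, and ZEB2 7.09 ± 2.82, 18.8 ± 2.85 and 3.59 ± 0.623 CPM. These groups belong to separate experiments, and each treatment was therefore set only against its own control.

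**Figure D2:**
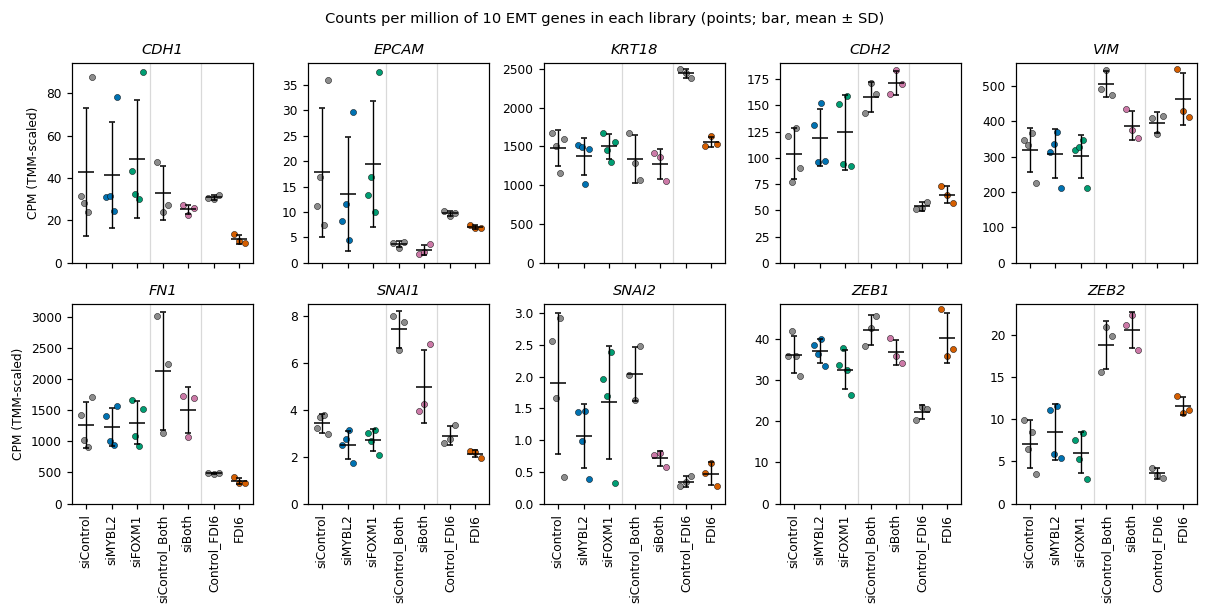
CPM (y axes, linear from 0, one scale per gene) of the 10 genes in each of 24 libraries (points), with the mean and SD of each group (bars), in 7 groups with controls in grey. The FDI6 libraries lie below Control_FDI6 for CDH1 (9.51 to 13.5 against 30.0 to 32.3 CPM) and KRT18 and above it for ZEB1 and ZEB2, and single-knockdown groups overlap their control for every gene.

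FDI-6 gave the widest change in these genes. CDH1 and KRT18 fell and ZEB1 and ZEB2 rose, so that 4 of the 9 genes tested were called (adjusted p below 0.05 together with at least a 1.5-fold difference), where 13.8% of all 15240 genes tested did (8% higher and 5.77% lower). SNAI2, with 5 to 11 counts per library, was removed by the filter on low counts. The mesenchymal markers CDH2, VIM and FN1 did not pass both thresholds.

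CDH1 was 13.5, 10.1 and 9.51 CPM in the 3 FDI6 libraries and 30.5, 30.0 and 32.3 CPM in the 3 Control_FDI6 libraries. The groups did not overlap, and the treated mean was 35.7% of the control mean. The log2 fold change was -1.49 ± 0.124 (SE, adjusted p = 5.54e-06). KRT18 was 1510.0, 1636 and 1535 CPM with FDI-6 and 2500.0, 2446 and 2385 CPM in its control. Again no treated library reached the control range, with a log2 fold change of -0.65 ± 0.0527 (SE, adjusted p = 4.70e-06). EPCAM, the third epithelial marker, was 7.39, 6.93 and 6.79 CPM against 10.2, 9.26 and 9.86 CPM. It too was lower in every treated library, but its log2 fold change of -0.48 ± 0.125 (SE, adjusted p = 0.0106) was under the fold threshold.

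ZEB2 was 12.8, 10.8 and 11.2 CPM with FDI-6 and 4.28, 3.42 and 3.07 CPM in its control. Its treated mean was 322% of the control mean, the widest change of the 9 genes, with a log2 fold change of 1.69 ± 0.159 (SE, adjusted p = 1.37e-05). ZEB1 was 47.2, 35.9 and 37.5 CPM with FDI-6 and 20.3, 23.4 and 22.9 CPM without. Every treated library exceeded every control library, with a log2 fold change of 0.85 ± 0.113 (SE, adjusted p = 0.000163). SNAI1 did not share this direction: it was 2.24, 2.21 and 1.95 CPM with FDI-6 and 2.60, 2.75 and 3.34 CPM without, on 35 to 62 counts per library. The groups did not overlap, yet the log2 fold change of -0.44 ± 0.216 did not pass the test (adjusted p = 0.127). SNAI2 was 0.485, 0.64 and 0.278 CPM with FDI-6 and 0.271, 0.337 and 0.431 CPM without, and the groups overlapped.

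Of the mesenchymal markers, FN1, the matrix glycoprotein fibronectin, was 422, 332 and 335 CPM with FDI-6 and 483, 482 and 483 CPM without. It was lower in all 3 treated libraries, by a log2 fold change of -0.41 ± 0.0837 (SE, adjusted p = 0.00249), under the fold threshold. CDH2 was 73.5, 65.0 and 56.5 CPM against 50.9, 52.0 and 58.3 CPM, and its groups overlapped (log2 fold change 0.27 ± 0.0987, adjusted p = 0.0466). VIM, the intermediate filament protein of mesenchymal cells, was 548, 429 and 413 CPM against 411, 363 and 415 CPM, and its groups overlapped as well (log2 fold change 0.22 ± 0.0968, adjusted p = 0.0905). FDI6 libraries thus had less CDH1 and KRT18 and more ZEB1 and ZEB2 mRNA, while the mesenchymal structural genes and SNAI1 did not pass both thresholds. The 4 calls held in each of the 6 fits that left out a library. With counts corrected for the GC content and length of transcripts, however, ZEB1 was 0.51 (adjusted p = 0.000163) and KRT18 -0.31 (adjusted p = 0.000157), both under the fold threshold, FN1 was past it at -0.59, and 1326 genes were called in place of 2098. CDH1 and ZEB2 passed both thresholds there as well, at -1.59 and 1.26. VIM then passed the adjusted p, at 0.41 (adjusted p = 0.00473), and CDH2 no longer did, at 0.12 (adjusted p = 0.207). EPCAM was -0.43 (adjusted p = 0.0128) and SNAI1 -0.13 (adjusted p = 0.718). These 4 genes all stayed under the fold threshold. In bulk RNA, a change of level per cell cannot be told apart from a change in the share of cells that express the gene.

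**Figure D3:**
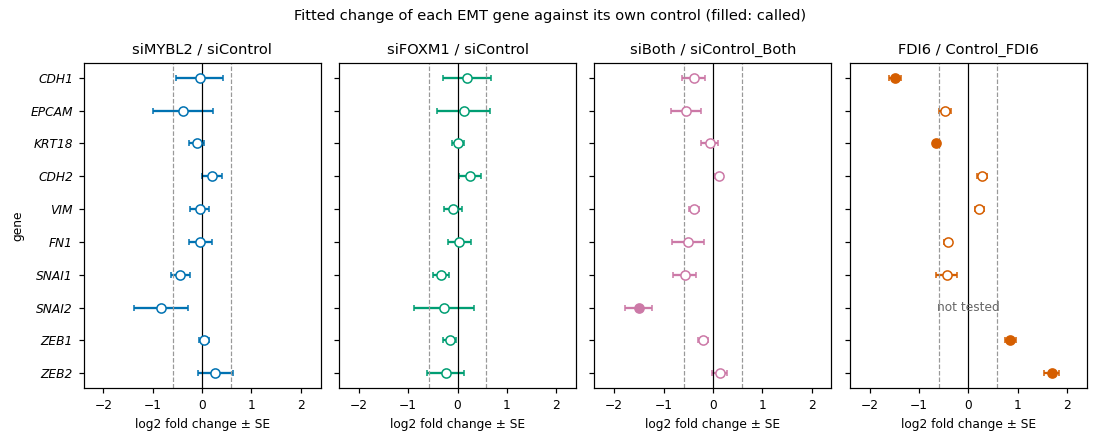
Fitted log2 fold change of each gene (x axis; bar, SE) against its own control in the 4 comparisons, with called genes filled and dashed lines at a fold of 1.5 in either direction. Filled points are CDH1, KRT18, ZEB1 and ZEB2 with FDI-6 and SNAI2 in siBoth, and SNAI2 was not tested with FDI-6.

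Some ratios between members do not depend on how libraries are scaled. The counts of CDH1 over CDH2 had a log2 ratio of -0.79 ± 0.058 in Control_FDI6 and -2.57 ± 0.115 in FDI6 (SD, n = 3 each), with lowest and highest values of -0.85 and -0.74 in the controls and -2.68 and -2.45 in the treated libraries. CDH1 over ZEB1 went from 0.48 ± 0.116 to -1.87 ± 0.095 (SD, n = 3 each), and neither ratio overlapped between these groups. ZEB2 over ZEB1 was -2.64 ± 0.349 in the control and -1.79 ± 0.081 with FDI-6, so that ZEB2 counts moved further than ZEB1 counts in the same libraries. In the single knockdowns CDH1 over CDH2 spread from -2.64 to -0.035 within the 3 groups, with means of -1.46 in siControl, -1.66 in siMYBL2 and -1.44 in siFOXM1. No test was run on these ratios.

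**Figure D4:**
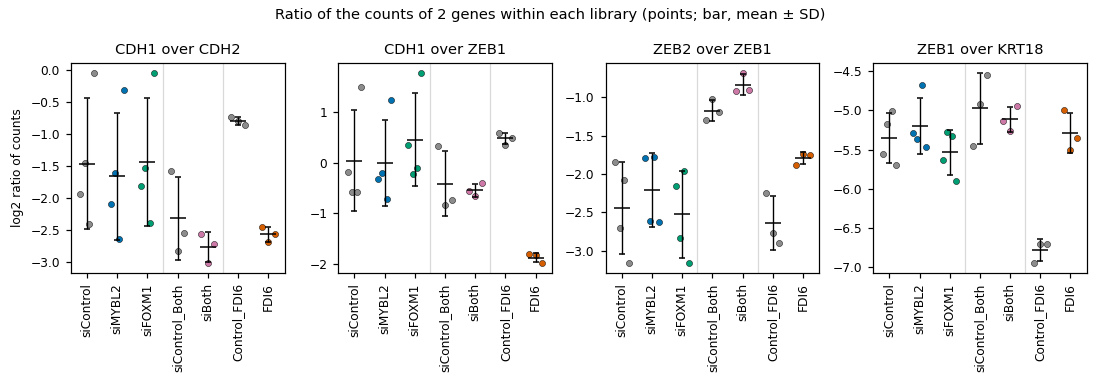
Log2 ratio of the counts of 2 genes in the same library (y axis) for CDH1 over CDH2, CDH1 over ZEB1, ZEB2 over ZEB1 and ZEB1 over KRT18, in 7 groups (x axis; points, libraries; bars, mean and SD). Each FDI6 library lies below each Control_FDI6 library in CDH1 over CDH2 (-2.68 to -2.45 against -0.85 to -0.74) and CDH1 over ZEB1, and above it in the other 2 ratios.

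In siBoth, SNAI2 fell and the other 9 genes did not pass both thresholds. SNAI2 was 0.759, 0.803 and 0.58 CPM in siBoth and 2.02, 1.64 and 2.48 CPM in siControl_Both. The groups did not overlap and the mean was 34.9% of the control mean, on 14 to 20 counts per siBoth library and 43 to 56 per control library. The log2 fold change was -1.51 ± 0.273 (SE, adjusted p = 0.0122), so 1 of 10 members was called where 6.44% of 15812 genes tested were (2.8% higher and 3.64% lower). The share of pairs not aligned was higher in each siBoth library (9.09% to 10.93%) than in each control library (7.68% to 7.92%), and its part in the siBoth results was not tested. When all 24 libraries shared 1 estimate of spread, the SNAI2 value was the same at -1.51 but the call was lost (adjusted p = 0.0791).

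VIM was 434, 377 and 352 CPM in siBoth and 493, 546 and 475 CPM in siControl_Both. The groups did not overlap, and the log2 fold change of -0.38 ± 0.105 did not pass the test (adjusted p = 0.0513). SNAI1 was 3.95, 4.23 and 6.79 CPM against 7.98, 6.55 and 7.74 CPM, with an overlap through siBoth number 3 (log2 fold change -0.57 ± 0.227, adjusted p = 0.135). Without that library SNAI1 was called, at -0.87 (adjusted p = 0.0273). FN1 spread widely in the control, at 3004, 1130.0 and 2238 CPM, and was 1721, 1075 and 1700.0 CPM in siBoth (log2 fold change -0.50 ± 0.325, adjusted p = 0.34). CDH1 was 27.1, 22.7 and 25.9 CPM against 47.8, 24.1 and 27.5 CPM (-0.39 ± 0.234, adjusted p = 0.303). EPCAM was 1.67, 2.20 and 3.60 CPM against 3.81, 2.97 and 4.16 CPM (-0.55 ± 0.297, adjusted p = 0.254). ZEB1, ZEB2, CDH2 and KRT18 had log2 fold changes between -0.20 and 0.13, and their groups overlapped.

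The libraries that share a replicate number deviated together in all 3 knockdowns, so the fits with that number as a block were read beside the others. With the block, siBoth called SNAI1 (-0.60 ± 0.164, adjusted p = 0.00972) in addition to SNAI2 (-1.497 ± 0.282, adjusted p = 0.000621), that is 2 of 10 members where 11.7% of genes were called. VIM (-0.38, adjusted p = 0.00105), FN1 (-0.42, adjusted p = 0.00355), CDH1 (-0.34, adjusted p = 0.0356) and EPCAM (-0.58, adjusted p = 0.0401) then passed the adjusted p and stayed under the fold threshold. CDH1, VIM, FN1, SNAI1, SNAI2 and EPCAM were each lower in 3 of 3 same-numbered pairs, and CDH2 was higher in 3 of 3, by 0.082 to 0.17 on the log2 scale. The share of all genes that kept the same direction in every pair is not given, here or for the single knockdowns below.

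In siMYBL2 none of the 10 genes was called by edgeR without the block, where 7.9% of 16065 genes tested were (4.38% higher and 3.52% lower). DESeq2 called 0 as well, 0 of the 10 had an unadjusted p under 0.05, the lowest being 0.0532 for SNAI1, and for each gene the groups overlapped. SNAI2 was 1.45, 0.982, 1.47 and 0.392 CPM in siMYBL2 and 2.57, 1.67, 2.93 and 0.422 CPM in siControl, in the order of the replicate numbers. It was lower in 4 of 4 same-numbered pairs, by 0.11 to 1.00 log2 units, although the groups overlapped (log2 fold change -0.83 ± 0.549, adjusted p = 0.329). With the block SNAI2 was called (-0.79 ± 0.199, adjusted p = 0.00525), 1 of 10 members where 12.4% of genes were called. Without both libraries numbered 4 and without a block, it was -0.90 ± 0.274 (adjusted p = 0.0512).

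SNAI1 was 2.49, 2.74, 3.13 and 1.71 CPM in siMYBL2 and 3.23, 3.67, 3.80 and 2.96 CPM in siControl. It was lower in 4 of 4 pairs, and its blocked log2 fold change of -0.45 ± 0.14 passed the adjusted p (0.0182) but not the fold. EPCAM was 8.19, 11.6, 4.51 and 29.8 CPM in siMYBL2 and 11.1, 16.9, 7.35 and 36.0 CPM in siControl. Its spread within each group exceeded the difference between groups (-0.39 ± 0.61, adjusted p = 0.707), yet it was lower in 4 of 4 pairs, with a blocked value of -0.45 ± 0.082 (adjusted p = 0.000485), also under the fold. CDH2 was higher in 4 of 4 pairs, with a blocked value of 0.20 ± 0.0453 (adjusted p = 0.00247), and KRT18 was lower in 4 of 4, with a blocked value of -0.11 ± 0.0366 (adjusted p = 0.0223). CDH1 was 30.9, 31.6, 24.4 and 78.5 CPM in siMYBL2 and 31.6, 28.2, 24.1 and 87.8 CPM in siControl. It was higher in 2 pairs and lower in the other 2 (-0.05 ± 0.481, adjusted p = 0.959), and its value was 0.04 ± 0.127 without both libraries numbered 4. VIM, FN1 and ZEB1 had fitted values between -0.05 and 0.04, and ZEB2 was 0.27 ± 0.357 (adjusted p = 0.656). Without both libraries numbered 4, EPCAM was -0.54 ± 0.364, SNAI1 -0.37 ± 0.163, CDH2 0.21 ± 0.211, ZEB2 0.19 ± 0.264 and KRT18 -0.12 ± 0.173, and VIM, FN1 and ZEB1 lay between -0.05 and 0.01. For these 8 genes the adjusted p was between 0.15 and 0.983.

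In siFOXM1 none of the 10 genes was called by edgeR, with or without the block, where 0.667% of 15892 genes tested were called without it (0.0755% higher and 0.591% lower) and 2.52% with it. Without the block 0 of the 10 had an unadjusted p under 0.05, and DESeq2 called 0. CDH1 was 43.3, 32.5, 30.4 and 90.3 CPM in siFOXM1, against the siControl values above, and was higher in 4 of 4 pairs by 0.041 to 0.455 log2 units (0.19 ± 0.477, adjusted p = 0.933; blocked 0.23 ± 0.0536, adjusted p = 0.0018). CDH2 was 151, 94.2, 159 and 92.5 CPM in siFOXM1 and 120.5, 77.3, 128 and 90.3 CPM in siControl. It was likewise higher in 4 of 4 pairs, with a blocked value of 0.24 ± 0.0402 (adjusted p = 5.60e-05). The cadherins were thus both higher in each siFOXM1 library than in the siControl library of the same number, by less than the fold threshold. ZEB1 was lower in 4 of 4 pairs (blocked -0.16 ± 0.0473, adjusted p = 0.0126), as was VIM (blocked -0.09 ± 0.0298, adjusted p = 0.0303). SNAI1 and ZEB2 were lower in 4 of 4 pairs too, and did not pass the blocked test (adjusted p = 0.0763 and 0.0789). EPCAM was higher in 4 of 4 pairs, by 0.00043 to 0.447 log2 units, and did not pass that test either (blocked 0.15 ± 0.0695, adjusted p = 0.119). Without both libraries numbered 4, CDH1 was 0.34 ± 0.145 (adjusted p = 0.331) and CDH2 0.31 ± 0.23 (adjusted p = 0.596) in siFOXM1, and the other 8 genes lay between -0.28 and 0.18, with adjusted p between 0.452 and 0.949. Leaving out those libraries gave 0 of the 10 genes called by edgeR in siMYBL2 and in siFOXM1, where 8.1% of 16104 and 0.696% of 15945 genes were called.

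The size of an effect was compared between treatments in 1 fit of all 24 libraries, where a difference was called at an adjusted p under 0.05. The FDI-6 effect differed from the siFOXM1 effect in 3 of 10 members, where 20% of 17752 genes did: ZEB1 by 1.01 ± 0.171 (adjusted p = 0.000288), ZEB2 by 1.93 ± 0.476 (adjusted p = 0.00668) and KRT18 by -0.66 ± 0.213 (adjusted p = 0.0319). Both treatments are aimed at FOXM1, but they differ in kind and were made in separate experiments. The KRT18 difference lost its call without siFOXM1 number 1, siControl number 3, FDI6 numbers 1 or 3, or Control_FDI6 numbers 1 or 2, with values between -0.56 and -0.66 and adjusted p between 0.0574 and 0.0749. CDH1 differed by -1.69 ± 0.635 and did not pass (adjusted p = 0.0652). Without siControl number 4 it was -2.30 (adjusted p = 0.00507), without siFOXM1 number 3 it was -1.86 (adjusted p = 0.049), and without siMYBL2 number 4 it was -1.69 (adjusted p = 0.0347). With the block, 7 of 10 members differed where 37.7% of genes did, CDH1 among them at -1.75 ± 0.166 (adjusted p = 2.81e-08), together with VIM, FN1 and EPCAM. That block also joined FDI6 and Control_FDI6 libraries by number, although their same-number correlations gave no ground for pairing them.

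The siMYBL2 and siFOXM1 effects, which share their control libraries, differed in 0 of 10 members where 25.3% of genes differed, by edgeR without the block, 0 by DESeq2, and 0 of the 10 had an unadjusted p under 0.05. Leaving out siMYBL2 number 4 brought EPCAM past the threshold (-1.26, adjusted p = 0.048). With the block 4 members differed where 42% of genes did: EPCAM by -0.63 ± 0.106 (adjusted p = 3.98e-05), ZEB2 by 0.51 ± 0.117 (adjusted p = 0.00104), CDH1 by -0.26 ± 0.097 (adjusted p = 0.0342) and KRT18 by -0.14 ± 0.0543 (adjusted p = 0.0437). The siBoth and siMYBL2 effects differed in 0 of 10 members where 0.304% of genes did, again with 0 by DESeq2 and 0 unadjusted p under 0.05. With the block VIM differed by -0.33 ± 0.0887 (adjusted p = 0.0272) and FN1 by -0.40 ± 0.12 (adjusted p = 0.0486), where 6.58% of genes did. SNAI2, called in siBoth and, with the block, in siMYBL2, differed between them by -0.67 ± 0.754 (adjusted p = 0.887).

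Wider lists of the same biology were read from the same fits. Of 20 epithelial junction, keratin and regulator genes, 15 were tested in siMYBL2, where 3 rose and 0 fell, while 7.9% of all genes were called and 4.38% were called higher (median log2 fold change 0.03, against 0.01 over all genes). One was CLDN4, a tight junction claudin, at 0.80 ± 0.137 (adjusted p = 0.00478). The other two, CDH3 (P-cadherin, 1.32) and ST14 (the epithelial protease matriptase, 1.22), had few counts and are named because their values were seen. Without both libraries numbered 4, CLDN4 (0.82 ± 0.162, adjusted p = 0.0103) and CDH3 (1.29 ± 0.383, adjusted p = 0.0474) were called, and ST14 was 1.296 ± 0.396 (adjusted p = 0.0512). CLDN4 rose in siBoth as well, by 0.99 ± 0.272 (adjusted p = 0.0486), the single call without the block among 12 tested genes of this list, where 6.44% of all genes were called and 2.8% were called higher (median 0.08, against 0.02). With FDI-6, of 11 tested, CLDN1, another claudin, rose by 1.10 ± 0.0671 (adjusted p = 5.74e-07) and KRT8 was lower at -0.81 ± 0.078 (adjusted p = 1.59e-05), with a list median of 0.09 against -0.01 over all genes, of which 13.8% were called, 8% higher and 5.77% lower. KRT18 and its filament partner KRT8 thus fell together with FDI-6, and their exons overlap on opposite strands over 17.1% of the exon bases of KRT18. With the GC and length correction KRT18 was -0.31, under the fold threshold, and corrected values are not given for the wider lists. Other keratins went both ways under that threshold, KRT7 at -0.34 (adjusted p = 0.000445) and KRT19 at 0.35 (adjusted p = 0.00549). In siFOXM1 edgeR called 0 of 15 without the block, with all libraries and without those numbered 4, and 2 had an unadjusted p under 0.05. With the replicate block, 12.4%, 2.52% and 11.7% of all genes were called in either direction in siMYBL2, siFOXM1 and siBoth. These were 1234 higher and 757 lower genes, 167 and 234, and 1046 and 803, in that order. Of this list, 4 of 15 rose in siMYBL2, 1 of 15 rose in siFOXM1, and 3 of 12 rose and 1 fell in siBoth. CLDN4 was called in all 3 of these fits (0.80, 0.61 and 0.98). The genes the block added, named because their values were seen, were the claudin CLDN7 in siMYBL2 (1.03 ± 0.299), and CDH3 (1.05 ± 0.355), SPINT1 (0.86 ± 0.23), a protease inhibitor, and the desmosomal DSP (-0.59 ± 0.0755) in siBoth.

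Of 20 mesenchymal matrix, cytoskeleton and surface genes, 17 were tested in siMYBL2, where 2 rose and 0 fell, against 4.38% of all genes called higher and 3.52% lower (median 0.09). These were MMP2, a gelatinase, at 0.86 ± 0.251 (adjusted p = 0.043) and ACTA2, smooth muscle actin, at 0.70 ± 0.154 (adjusted p = 0.0144). Without both libraries numbered 4 MMP2 was called (0.88 ± 0.208, adjusted p = 0.022), and ACTA2 was 0.55 ± 0.16 (adjusted p = 0.0451), under the fold threshold. In siBoth ACTA2 rose by 1.12 ± 0.285 (adjusted p = 0.039) and TAGLN, the actin-binding protein transgelin, by 1.05 ± 0.265 (adjusted p = 0.0385), with 0 of 17 lower, where 2.8% of all genes were called higher and 3.64% lower (median -0.03). With FDI-6 this list split, with 2 of 15 higher and 3 lower, where 8% of all genes were called higher and 5.77% lower (median -0.21, against -0.01 over all genes). CD44, the hyaluronan receptor, rose by 1.09 ± 0.0595 (adjusted p = 2.46e-07). The fibrillar collagen genes COL1A1 (-1.28 ± 0.175, adjusted p = 0.000199) and COL5A1 (-0.79 ± 0.142, adjusted p = 0.00117) fell, as did SPARC, a matrix protein with few counts (-0.84, adjusted p = 0.0445), named because its value was seen. FN1 was lower in the same libraries as these collagens, so that these matrix genes and the repressors ZEB1 and ZEB2 had opposite signs. In siFOXM1 edgeR called 0 of 17 without the block, with all libraries and without those numbered 4, and 3 had an unadjusted p under 0.05. With the block 3 of 17 rose in siMYBL2, 2 of 17 in siFOXM1 and 5 of 17 in siBoth, and 0 fell. Over all genes 12.4%, 2.52% and 11.7% were called in either direction. These were 1234 higher and 757 lower in siMYBL2, 167 and 234 in siFOXM1, and 1046 and 803 in siBoth. The genes added, named because their values were seen, were SPARC in siMYBL2 (0.74 ± 0.0659) and siBoth (0.96 ± 0.113), COL1A1 (0.65 ± 0.0651) and TAGLN (0.83 ± 0.108) in siFOXM1, and MMP2 (0.67 ± 0.0978) and the membrane protease MMP14 (0.68 ± 0.199) in siBoth.

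Of 15 further transcription factors of the transition and ID inhibitors, TCF3, which encodes E-box binding E proteins, fell in siMYBL2 (-0.78 ± 0.106, adjusted p = 0.00183), 1 of 13 tested, where 7.9% of all genes were called (median -0.28). Without both libraries numbered 4 it was -0.76 ± 0.0981 (adjusted p = 0.00197), again the single call. With FDI-6, ID1, an inhibitor of such E proteins, fell by 0.74 on the log2 scale (adjusted p = 7.91e-06), and FOXC2, a forkhead factor with few counts named because its value was seen, rose by 2.13 (adjusted p = 0.0038), of 13 tested, where 13.8% of all genes were called (median 0.29). By edgeR 0 of 13 were called in siBoth and 0 of 12 in siFOXM1, where 6.44% and 0.667% of all genes were called. At an unadjusted p under 0.05 there were 3 and 1. The block added ID1 in siMYBL2 (-0.75 ± 0.0462), ID2, a related inhibitor, in siBoth (-0.91 ± 0.1) and SNAI3, of the SNAIL family, in siFOXM1 (0.79 ± 0.281), 2 of 13, 1 of 13 and 1 of 12 called, where 12.4%, 11.7% and 2.52% of all genes were. Of 6 catenins and linkers that bind cadherins, JUP, or plakoglobin, rose in siBoth (0.73 ± 0.177, adjusted p = 0.0335) and fell with FDI-6 (-0.70 ± 0.0603, adjusted p = 7.49e-06). It was 1 of 6 called in each, where 6.44% and 13.8% of all genes were called. By edgeR 0 of the 6 were called in siMYBL2 and siFOXM1, where 7.9% and 0.667% of all genes were. At an unadjusted p under 0.05 there were 0 and 1 of the 6. Of 12 corepressors of the SNAIL and ZEB proteins and genes of SNAI1 turnover, 1 was called in siFOXM1 and in siBoth, namely SUZ12, a Polycomb subunit. SUZ12 fell in siFOXM1 (-1.32 ± 0.0959, adjusted p = 0.000399) and in siBoth (-0.83 ± 0.0958, adjusted p = 0.00189), where 0.667% and 6.44% of all genes were called. In siMYBL2 and with FDI-6 edgeR called 0 of 12, where 7.9% and 13.8% of all genes were called. At an unadjusted p under 0.05 there were 4 and 10 of these 12. The share of all genes at that unadjusted level is not given for this or the other lists. Among markers of other cell types, the fibroblast marker THY1 rose in siMYBL2 (1.17 ± 0.194, adjusted p = 0.00408), where the 8 fibroblast markers summed to 30.9 to 50.2 CPM against 23.7 to 39.0 CPM in siControl. With the block THY1 was also called in siFOXM1, where it was lower (-0.78 ± 0.155), and in siBoth, where it was higher (0.94 ± 0.145). The monocyte marker CD14 rose in siMYBL2 (1.06 ± 0.233, adjusted p = 0.0146) and siBoth (1.08 ± 0.24, adjusted p = 0.0254), while PTPRC and CD3E never passed 1 CPM. Leaving out both libraries numbered 4 kept the siMYBL2 calls of THY1 (1.16 ± 0.186) and CD14 (0.96 ± 0.246) and the siFOXM1 call of SUZ12 (-1.33 ± 0.11), and the block kept them as well. With FDI-6 COL1A1 was the only called marker of another cell type, where 13.8% of all genes were called. Few were tested there: 2 of 8 fibroblast, 0 of 3 endothelial, 1 of 3 immune and 1 of 5 alveolar type II markers.

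**Figure D5:**
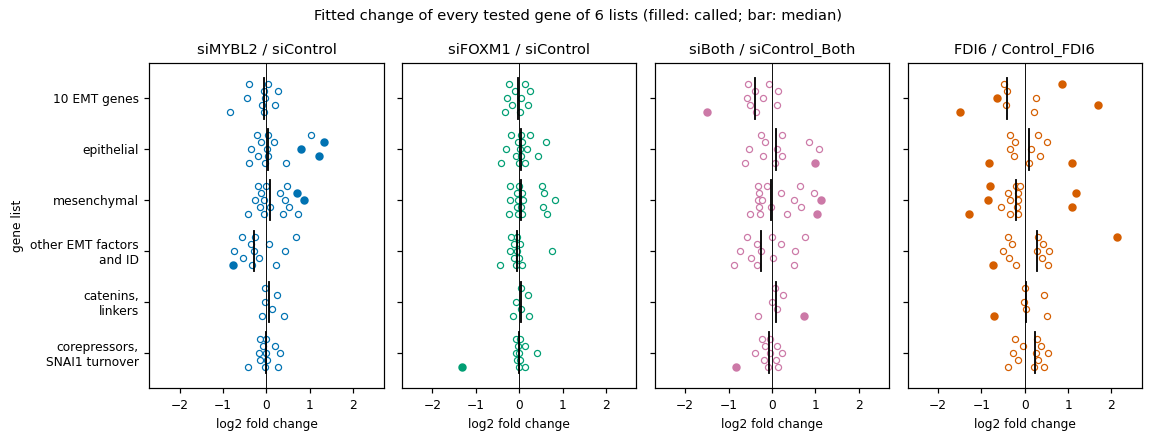
Fitted log2 fold change (x axis) of every tested gene of 6 gene lists (y axis) in the 4 comparisons, with called genes filled and the list median as a bar. The 9 tested transition genes have a median of -0.41 with FDI-6, where called genes lie on both sides of 0, and all 10 have one of -0.38 in siBoth, against -0.01 and 0.02 over all genes tested.

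Some members share exon bases with genes on the other strand, and whether the counting used strand is not given in the sources used here. The share was 24.6% of the exon bases for VIM, 17.1% for KRT18, between 3.6% and 5.7% for CDH1, CDH2, SNAI2, ZEB1 and ZEB2, and 0 for FN1, SNAI1 and EPCAM. ZEB1-AS1, which runs from the ZEB1 start site in the opposite direction, had a log2 fold change of 0.61 ± 0.27 with FDI-6 (adjusted p = 0.0929), and VIM-AS1 had 0.25 ± 0.384 (adjusted p = 0.642). KRT18 also has 67 processed copies among the gene identifiers, which together took 0.0887% to 0.254% as many counts as KRT18.

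The genes whose pattern was most like that of a member were ranked over 12560 genes by Pearson correlation of log2 CPM against the own control mean, over 24 libraries that share controls and number effects. For CDH1 they were KCNK3 (r = 0.969), SLC7A7 (0.961) and SLC23A1 (0.96), and for VIM they were EIF3J (0.919), CAV2 (0.918) and MSANTD3 (0.907). For FN1 they were HGF (0.897), SPTSSA (0.894) and IGFBP3 (0.873). CDH2 had weaker neighbours, namely SPECC1 (0.771), STX3 (0.769) and LTBP2 (0.768). These values describe likeness only.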

How the data were processed

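Poly(A) RNA of 24 A549 libraries was sequenced as 150 bp pairs. Per the submitters' processing notes and the study's methods, the authors trimmed reads with Trim Galore, aligned them to hg38 with STAR and used HTSeq to count pairs per GENCODE V29 gene. The deposited files hold these whole-number counts without normalization. Strand setting and versions are not given in the sources used here. Of 58721 identifiers, 58252 matched GENCODE V44 names, used for positions and lengths. Pairs that match several genes are left out by HTSeq, which lowers overlapping genes and genes with copies.

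Each treatment was fitted against its own control with edgeR 4.0.16 in R 4.3.3 (TMM, filterByExpr, quasi-likelihood test, no block, Benjamini-Hochberg over all genes tested). Genes were called at adjusted p below 0.05 with more than a 1.5-fold difference. Differences between effects used 1 fit of all 24 libraries. CPM were scaled by TMM over 24 libraries, so ratios of CPM differ slightly from fitted changes. SE is the size of the log2 fold change over the square root of F. The scripts were tested on simulated data. Members and lists were chosen with earlier results of these data known. Named list genes were at most 4 per list and comparison, the widest changes of called genes averaging 50 counts or more, and exceptions are stated. One gene that met this rule is not reported here.

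Replicate numbers in the labels were taken to pair the knockdown libraries, since every same-number correlation of deviations was over 0.1 (0.537 to 0.905). With FDI-6 they were -0.115, 0.159 and -0.286, so ratios of same-numbered pairs are not reported there. The alternatives with the block nevertheless included the FDI-6 numbers as a block. This holds for the blocked difference between the FDI-6 and siFOXM1 effects as well. No libraries of a group agreed within sampling noise (lowest chi-square per gene 3.573). Alternatives were DESeq2 1.42.0, other scaling and filters, the block, a GC and length correction, a fit of all libraries, and leaving out each library. Leaving out both libraries numbered 4 was added after the data were seen.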

Additional observations from a re-analysis of the deposited data

Results flagged for a closer look

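CDH1 in replicate 4 stood far from the other libraries of its group, at 78.52 CPM in siMYBL2 and 87.8 CPM in siControl, and KRT18 in siMYBL2 replicate 3 stood below the other libraries of its group at 1020.0 CPM. The gap to the nearest library exceeded Dixon's critical value for 4 libraries in these 3 of 30 groups of values tested, where chance gives about 1 in 20. In siFOXM1 the replicate 4 library also had the highest CDH1, within that limit. Replicate 3 likewise had the lowest KRT18 in siControl (1152 CPM) and in siFOXM1 (1305 CPM). Libraries of the same number deviated together, so these groups of values are not independent of each other.

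The FDI-6 effect differed from the siFOXM1 effect, by the edgeR contrast in 1 fit, for KRT18 (difference -0.6624 on the log2 scale), ZEB1 (1.01) and ZEB2 (1.927). Of all 17752 genes tested, 20% differed. The KRT18 call was lost in 6 of the 24 fits that left out a library.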

How the results depend on the processing

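SNAI2 had 5 to 84 counts per library and EPCAM 44 to 94 in the double-knockdown experiment, and every value rests on 3 or 4 libraries a group. Over the 10 genes and 7 comparisons, alternatives other than leaving out a library kept direction and side of the thresholds for 432 values, brought 16 past them, lost 5 and reversed 8. With the replicate block the calls went to 1991 genes and 1 member in siMYBL2, 401 genes in siFOXM1, and 1849 genes and 2 members in siBoth, and the block changed no other call of a member against its own control. With the block and the GC and length correction together they were 1988 genes and 1 member, 392 genes, and 1576 genes and 2 members in the same order, and 1262 genes with FDI-6, against 1326 with that correction alone. DESeq2 called 164 genes in siFOXM1, no filter 1545 in siBoth, and 1 fit of all libraries 0 members in siBoth. For differences between effects the block gave 7459 genes and 4 members for siMYBL2 minus siFOXM1, 1168 and 2 for siBoth minus siMYBL2, and 6698 and 7 for FDI6 minus siFOXM1, and DESeq2 gave 134 genes for siBoth minus siMYBL2.

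Reversed signs, all of small values, came with upper-quartile scaling for CDH1 (0.0056), VIM (0.0042) and FN1 (0.017) in siMYBL2, KRT18 in siBoth (0.0069) and CDH2 in FDI6 minus siFOXM1 (-0.044). KRT18 in siFOXM1 reversed with the GC and length correction (-0.0093, and -0.0027 with the block), and CDH1 in siMYBL2 without both libraries numbered 4 (0.041). The cause was not tested.

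Leaving out each library in turn moved the genes called to between 56 and 115 in siFOXM1, the lower counts coming without siFOXM1 replicate 1 (56) or 3 (69) or siControl replicate 1 (66) or 2 (68). In siBoth it gave between 587 and 1097 genes, with 587, 589 and 643 without siBoth replicate 2, siControl_Both replicate 2 and siControl_Both replicate 3, and 1 to 2 members. For siBoth minus siMYBL2 it gave between 26 and 84 genes, with 84 without siMYBL2 replicate 2 and 26 to 35 without siMYBL2 replicate 3, siControl replicate 1, siBoth replicate 2 or any siControl_Both library, and for siMYBL2 minus siFOXM1 0 to 1 members. The log2 values of some uncalled members changed sign when a library was left out, with the following ranges. In siMYBL2 these were CDH1 (-0.56 to 0.55), VIM (-0.19 to 0.10), FN1 (-0.17 to 0.13), ZEB1 (-0.045 to 0.11), EPCAM (-1.13 to 0.19) and KRT18 (-0.22 to 0.0075). In siFOXM1 these were CDH1 (-0.28 to 0.81), VIM (-0.22 to 0.051), FN1 (-0.11 to 0.21), SNAI2 (-0.60 to 0.075), EPCAM (-0.41 to 0.72) and KRT18 (-0.0905 to 0.0732). In siBoth this was KRT18 (-0.21 to 0.11). In siMYBL2 minus siFOXM1 these were CDH1 (-0.76 to 0.23), CDH2 (-0.20 to 0.082), VIM (-0.10 to 0.18), FN1 (-0.22 to 0.061), SNAI1 (-0.23 to 0.037) and EPCAM (-1.26 to 0.015). In siBoth minus siMYBL2 these were CDH1 (-0.96 to 0.18), CDH2 (-0.20 to 0.0596), SNAI1 (-0.42 to 0.014), ZEB2 (-0.33 to 0.10), EPCAM (-0.75 to 0.58) and KRT18 (-0.10 to 0.23). In FDI6 minus siFOXM1 these were CDH2 (-0.10 to 0.16) and SNAI1 (-0.22 to 0.0053).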
